A study of Caenorhabditis elegans with 15 samples.

Results

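The neuropeptide genes of the flp and nlp families were examined in RNA-seq libraries of whole Caenorhabditis elegans larvae. All genes of the count table whose name begins with flp- or nlp- and that reached 1 CPM (a count scaled to a common library size) in at least 3 of the 15 libraries were taken, which gave 69 genes, 30 flp and 39 nlp, of the 75 flp and nlp genes listed and of 14037 genes tested in all. The animals were synchronized wild-type larvae of the N2 strain, raised on OP50 bacteria for 34 h and then kept for 12 h with ursolic acid (UA, a plant triterpenoid, at 50 µM), with its solvent dimethyl sulfoxide (DMSO) or with neither. They were collected at the L4 stage, without any transgene or mutation. Each of the 3 groups had 5 libraries from replicates that the study describes as independent, and the label of every library names 1 of 5 batches, each of which holds 1 UA, 1 DMSO and 1 untreated library.

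Neuropeptides are made as longer precursors that enzymes cut and amidate while they are packed into dense core vesicles, and after release they mostly act on G-protein-coupled receptors. The flp genes encode peptides related to FMRFamide, and the nlp genes encode all other neuropeptide-like precursors that are not insulins. Most of both families are expressed in small sets of neurons and tune locomotion, feeding, egg laying and sleep. A subset of nlp genes encodes glycine- and tyrosine-rich peptides of the YGGW type that include antimicrobial peptides of the epidermis. The best known are the nlp-29 cluster genes, which the epidermis induces upon fungal infection and wounding. The comparison of UA with DMSO asked which of these genes the compound changed beyond its solvent, and the untreated larvae showed what the solvent changed.

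Total counts ranged from 12485842 to 24872334 per UA library, from 22148505 to 24018538 per DMSO library and from 20644549 to 27474535 per untreated library. The UA library of batch 5 was the least deeply sequenced. The 69 genes took between 0.104% and 0.136% of all counts of a library, with 14 to 4143 counts per gene and library. Markers of the main tissues of a whole animal were present: 11 of 11 listed neuronal genes, 8 of 8 epidermal, 5 of 5 body wall muscle and 7 of 8 intestinal genes passed the same filter. The remaining intestinal gene, opt-2, was not found by name in the count table. In whole larvae, fewer cells of a type and less RNA per cell cannot be told apart. Intervals and fold changes below come from edgeR's quasi-likelihood fit to all 15 libraries, with group and batch as terms. Genes were called where the p-value, adjusted by Benjamini-Hochberg over all 14037 genes, was under 0.02.

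The highest levels belonged to YGGW-type nlp genes, the intestinal nlp-40 and nlp-36. Levels between genes are given in TPM, for which counts are divided by the exonic length of each gene before scaling. Over the 15 libraries nlp-33, a gene of the YGGW type, averaged 445 ± 123 TPM (SD, n = 15) and nlp-24, of the same type, 324 ± 56.8 TPM. They were followed by nlp-36 with 215 ± 19.8 TPM and by nlp-40 with 191 ± 17.6 TPM. The gene nlp-40 encodes an intestinal peptide that times the defecation rhythm through the neuronal receptor AEX-2. The ranges over libraries overlapped between nlp-33 and nlp-24, and nlp-33 was the higher one in 12 of the 15 libraries. They also overlapped between nlp-36 and nlp-40, but within each library nlp-36 was the higher one, in 15 of 15. The ranges did not overlap between nlp-24 and nlp-36, or between nlp-40 and the next gene, flp-14.

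The highest flp genes were flp-14 at 80.6 ± 8.91 TPM, flp-1 at 73.7 ± 6.95 TPM and flp-9 at 63.0 ± 5.93 TPM (SD, n = 15 each). The peptides of flp-1, made by the AVK interneurons, act on locomotion. The 30 flp genes lay between 7.74 TPM (flp-25) and 80.6 TPM with a median of 20.9 TPM. The 39 nlp genes covered a wider span, from 2.22 TPM (nlp-25) to 445 TPM, with a median of 22.4 TPM. In the nlp-29 cluster, nlp-31 had the highest level (78.6 ± 10.1 TPM) and nlp-28 the lowest (10.1 TPM). From flp-14 down to the lowest gene, each range over libraries overlapped that of the next gene in order, and in 1 of these 64 pairs of neighbours (flp-25 over nlp-2) the higher gene was above the next in all 15 libraries. Of the 69 genes, 47 exceeded the median of all tested genes, 15.6 TPM. Neuropeptide transcripts are short, here with a median exonic length of 610 bp, and 16 genes exceeded the median of all genes when CPM was not divided by length.

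**Figure D1:**
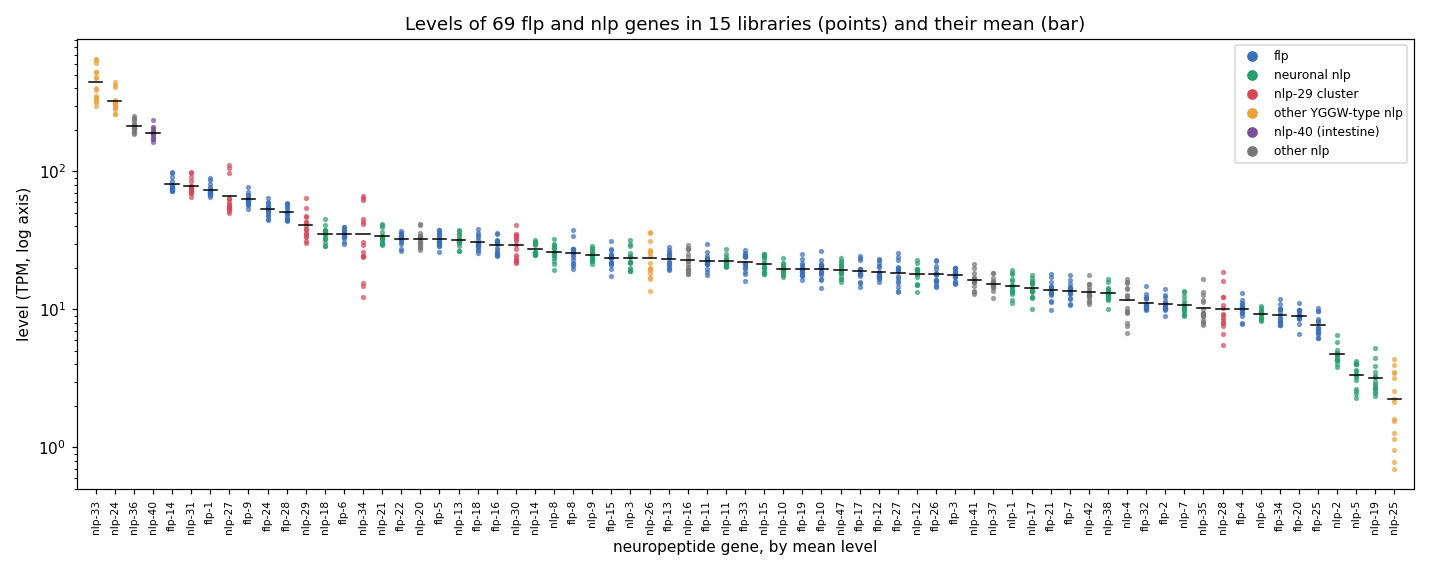
Level of each of the 69 flp and nlp genes in the 15 libraries (points, TPM on a log axis) with the mean (bar), ordered by mean and coloured by class. The genes nlp-33, nlp-24, nlp-36 and nlp-40 stand above flp-14, and nlp-34 and nlp-25 show the widest spread between libraries.

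There were 6 genes of the families below the filter. No count in any library was found for nlp-39, and the highest count in a library was 1 for flp-23, 2 for nlp-32, 5 for nlp-22, 13 for nlp-23 and 16 for nlp-46. The gene nlp-22 encodes a peptide of the RIA interneurons that promotes the sleep-like state of moulting larvae, and nlp-32 is a further gene of the YGGW type. Counts this low in whole larvae do not show that a gene was silent in the cells that may use it.

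Between UA and DMSO 0 of the 69 neuropeptide genes were called, against 0.271% of all tested genes (38 of 14037). The smallest adjusted p among them was 0.193 (edgeR), and 4 of the 69 had an unadjusted p under 0.05, against 14% of all genes. DESeq2 also called 0 of them. Their log2 fold changes lay between -0.25 and 0.16 with a median of -0.03, and the median of all genes was -0.00. The 95% interval of the change stayed within 0.5 of no change on the log2 scale for 67 of the 69 (89.9% of all genes) and within 1 for all 69 (99.4% of all genes). A doubling or halving by UA was thus outside the interval of each gene. How far smaller changes were excluded depended on the gene, and intervals were wide where counts were few: that of nlp-5, with 14 to 45 counts per library, ran from -0.31 to 0.50. Small changes could also go uncalled at high counts, as for nlp-33 and nlp-24 below, whose intervals left out no change. Fold changes above 0 were found for 24 of the 69 genes, 7 of them flp genes, against 49.4% of all genes.

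The largest rise in the estimate was that of nlp-13, a neuronal gene. It had 21.6, 21.95, 17.5, 18.03 and 21.8 CPM in the UA libraries of batches 1 to 5, against 19.4, 20.6, 16.7, 15.5 and 17.9 CPM in the DMSO libraries. The UA library was the higher one in all 5 batches, although both groups overlapped. This gave a log2 fold change of 0.16 ± 0.055 (SE) and an adjusted p of 0.193 by edgeR. It was 1 of 3 neuropeptide genes on the same side in 5 of 5 batches, as were 11% of all genes. Untreated libraries had 20.7, 19.97, 19.3, 17.96 and 21.8 CPM, so that the log2 fold change was 0.01 for UA against untreated and -0.15 for DMSO against untreated. Both comparisons with DMSO use the same DMSO libraries.

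The lowest estimate was that of nlp-42, annotated as a homologue of myoinhibitory peptides under the name mihp-2. Its levels were 4.67, 4.66, 4.10, 3.76 and 5.26 CPM in the UA libraries of batches 1 to 5, against 4.51, 5.76, 5.71, 4.42 and 6.24 CPM in the DMSO libraries. UA was lower in 4 of 5 batches (log2 fold change -0.25 ± 0.094 (SE), adjusted p = 0.246 by edgeR). Untreated libraries lay between 3.90 and 4.99 CPM, and the log2 fold change was -0.02 for UA against untreated and 0.23 for DMSO against untreated. As for nlp-13, the DMSO libraries and not the UA libraries stood away from the untreated ones in these estimates, and none of them passed the threshold.

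None of the other genes at the ends of the ranking passed the threshold. At the upper end, nlp-28 of the nlp-29 cluster (0.15, interval -0.21 to 0.52), flp-4 (0.13), nlp-5 (0.10) and flp-20 (0.09) had adjusted p-values from 0.605 to 0.869 (edgeR). Single libraries weighed on these estimates: that of nlp-28 was 0.00 without the UA library of batch 4 and 0.31 without that of batch 3, and that of flp-4 was 0.04 without the UA library of batch 5. Levels of flp-4 were 4.53 to 7.38 CPM in UA and 4.46 to 6.48 CPM in DMSO, and those of flp-20, a gene of touch receptor neurons, 3.36 to 4.10 CPM in UA and 2.98 to 3.84 CPM in DMSO. At the lower end stood flp-26 (-0.18), flp-2 (-0.17), nlp-38 (-0.14) and nlp-34 (-0.13), with adjusted p-values from 0.380 to 0.521 (edgeR). The gene flp-2, whose peptides take part in arousal and in stress signalling from the intestine, had 4.51 to 5.89 CPM in UA and 4.96 to 7.68 CPM in DMSO, where a single DMSO library, of batch 2, held the highest value. Both nlp-38, annotated as mihp-1, and nlp-34 were lower in UA in 5 of 5 batches.

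None of the 4 genes with the highest levels was called between UA and DMSO, but nlp-33 and nlp-24 were, with nlp-13 and nlp-42, the 4 neuropeptide genes at an unadjusted p under 0.05. For nlp-33 the UA libraries had 134, 112, 88.5, 165 and 95.3 CPM in batches 1 to 5, against 145, 149.5, 93.4, 171 and 92.7 CPM in the DMSO libraries (log2 fold change -0.13, interval -0.24 to -0.02, adjusted p = 0.281, edgeR). For nlp-24 the UA libraries had 79.2 to 131 CPM and the DMSO libraries 84.7 to 126 CPM (log2 fold change -0.13, interval -0.24 to -0.01, adjusted p = 0.310, edgeR). The intestinal gene nlp-40 averaged 109 ± 3.61 CPM in UA and 114 ± 15.1 CPM in DMSO (SD, n = 5 each), a log2 fold change of -0.06 with an interval of -0.17 to 0.05. For nlp-36 the log2 fold change was -0.09 with an interval of -0.20 to 0.02, and for the abundant flp-14 it was -0.00 with an interval of -0.10 to 0.10.

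**Figure D2:**
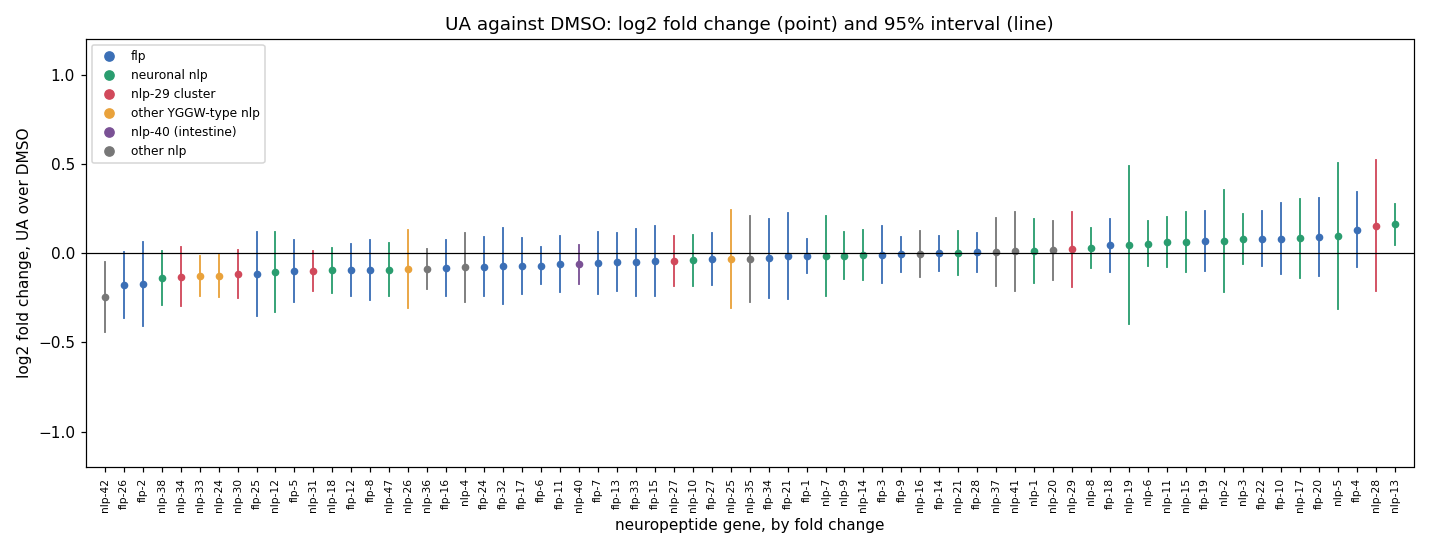
Log2 fold change of UA over DMSO (points) with its 95% interval (lines) for the 69 genes, ordered by fold change and coloured by class. The points run from -0.25 (nlp-42) to 0.16 (nlp-13), and no interval reaches 1 on either side.

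The comparison with untreated larvae gave the same count. Between UA and untreated larvae 0 of the 69 genes were called, against 1.05% of all genes (147), with 7 at an unadjusted p under 0.05 (12.3% of all genes) and 0 calls by DESeq2. All 7 were lower in UA: flp-16, nlp-18, nlp-25, flp-17, nlp-38, flp-6 and nlp-35, and the smallest adjusted p was that of flp-16, 0.104 (edgeR). The log2 fold changes lay between -0.35 and 0.13, with a median of -0.07 (all genes 0.00). Above 0 were 16 of the 69, against 52.1% of all genes.

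Between DMSO and untreated larvae 0 were called, against 0.121% of all genes (17), with 8 at an unadjusted p under 0.05 (7.91% of all genes) and 0 calls by DESeq2. Of these 8, nlp-42 was higher in DMSO and nlp-13, nlp-8, nlp-25, flp-16, flp-4, nlp-35 and nlp-3 were lower. The log2 fold changes lay between -0.32 and 0.23 with a median of -0.04 (all genes 0.01), and the smallest adjusted p was 0.473 (edgeR). Above 0 were 25 of the 69, against 53.8% of all genes. The untreated libraries are shared with the comparison of UA with untreated larvae, which also had flp-16, nlp-25 and nlp-35 at an unadjusted p under 0.05. For flp-16 the log2 fold change was -0.26 for UA against untreated and -0.17 for DMSO against untreated, and for nlp-25 it was -0.35 for UA and -0.32 for DMSO. The widest interval bounds of any neuropeptide gene were -0.61 and 0.51 for UA against untreated and -0.59 and 0.45 for DMSO against untreated.

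Epidermal and neuronal nlp genes were set side by side. The 6 genes of the nlp-29 cluster had a median log2 fold change of -0.07 between UA and DMSO, with 2 of 6 above 0, the other 4 YGGW-type genes had -0.11, with 0 of 4 above 0, and the 20 neuronal nlp genes that passed the filter had 0.02, with 12 of 20 above 0. The summed level of the cluster was 82.1 ± 12.99 CPM in UA, 85.8 ± 8.87 CPM in DMSO and 85.7 ± 10.6 CPM in untreated larvae (SD, n = 5 each). The neuronal nlp genes summed to 215 ± 13.2 CPM in UA, 213.7 ± 14.7 CPM in DMSO and 224 ± 15.8 CPM in untreated larvae, and the 30 flp genes to 404 ± 33.4 CPM in UA, 412 ± 36.1 CPM in DMSO and 419 ± 14.1 CPM in untreated larvae. Within batches, the neuronal nlp sum was lower in DMSO than in untreated larvae in 5 of 5 batches. This was not particular to these genes: the sum of the 11 neuronal markers was lower in 5 of 5 and the cluster sum in 4 of 5. The flp sum was lower in UA than in DMSO in 4 of 5 batches, while the cluster sum was lower in UA than in DMSO in 3 of 5. No test was attached to these sums. nlp-29 itself, the reporter gene of the epidermal antifungal response, averaged 11.6 ± 3.56 CPM in UA, 11.3 ± 2.61 CPM in DMSO and 12.6 ± 1.80 CPM in untreated larvae (SD, n = 5 each), with a log2 fold change of 0.02 between UA and DMSO and an interval of -0.19 to 0.23.

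More neuropeptide genes differed between batches than between treatments, and among them the YGGW-type genes differed most. A test of any difference between the 5 batches called 30 of the 69 neuropeptide genes, against 53% of all genes (7441), so the families as a whole were not called more often than other genes. By class, the calls were 6 of 6 for the nlp-29 cluster, 4 of 4 for the other YGGW-type genes nlp-24, nlp-25, nlp-26 and nlp-33, 8 of 20 for neuronal nlp genes, 8 of 30 for flp genes, 3 of 8 for the remaining nlp genes, and nlp-40. The range of a gene, the difference between its highest and its lowest fitted batch level on the log2 scale, had a median of 0.80 for the nlp-29 cluster, 0.97 for the other YGGW-type genes, 0.31 for neuronal nlp genes and 0.31 for flp genes, beside 0.36 for all genes. Large medians were not particular to the YGGW type: 8 moulting cycle genes had 0.87, 8 epidermal markers 0.51 and 28 sperm genes 1.55. A range of at least 0.5 was found for 17 of the 69 (36.1% of all genes) and of at least 1 for 3 (13.4% of all genes): nlp-25 with 2.20, nlp-34 with 2.16 and nlp-4 with 1.02. The difference between the medians of cluster and neuronal nlp genes, 0.49, is a description of the genes listed. It was 0.154 without batch 5, where 4 of the 6 cluster genes had their highest level.

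**Figure D3:**
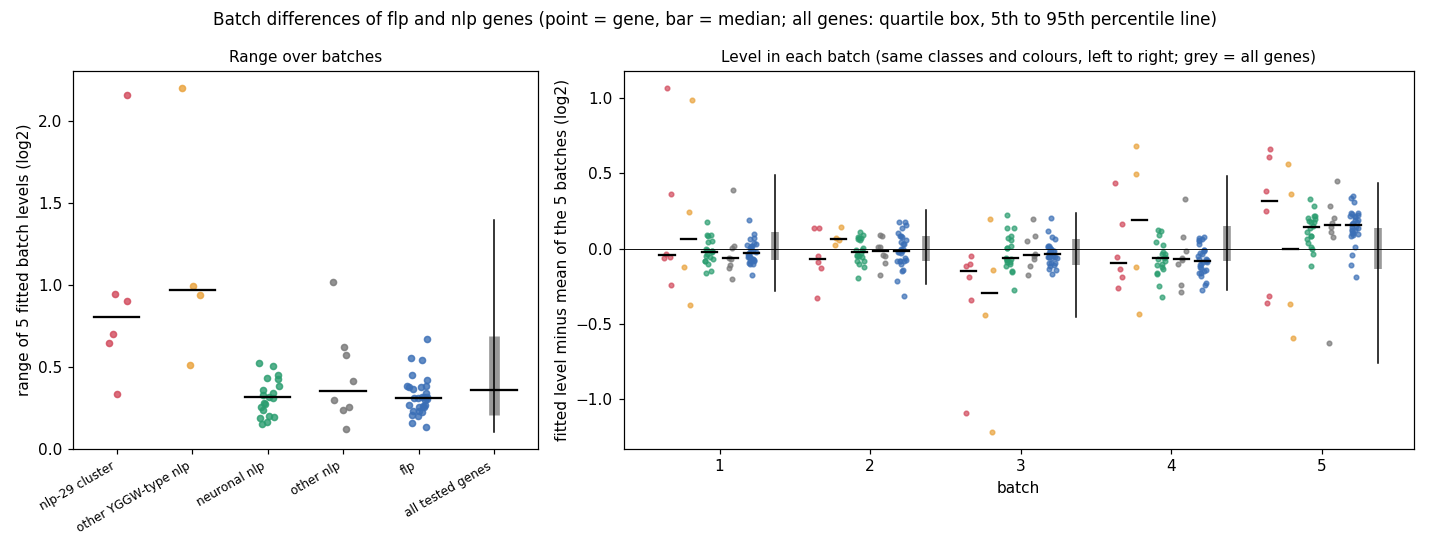
Left, range of the 5 fitted batch levels (log2) for each gene by class, and right, the level in each batch minus the mean of the batches. Points are genes, bars are medians, and grey marks all 14037 genes (box, quartiles; line, 5th to 95th percentile); the single gene nlp-40 is not drawn. YGGW-type genes range up to 2.20, neuronal nlp genes up to 0.52 and flp genes up to 0.67.

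The nlp-29 cluster covers 10946 bp of chromosome V in the WBcel235 annotation. Its genes are nlp-34 on the minus strand (3978825 to 3979134) and, on the plus strand, nlp-31 (3980055 to 3980622), nlp-30 (3981980 to 3982741), nlp-29 (3984425 to 3984847), nlp-28 (3987900 to 3988316) and nlp-27 (3989378 to 3989770). Each has 2 exonic blocks, and 920 to 3052 bp separate neighbours. How reads that match several places were counted is not given in the sources used here, so the counts of genes that are alike in sequence, as genes of this cluster may be, are uncertain. Exons of none of the 6 overlapped those of another gene. The genes of the cluster followed 2 different courses over the batches.

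The cluster genes nlp-34 and nlp-30 were highest in batch 1 and low in batches 3 and 5. For nlp-34 the UA libraries of batches 1 to 5 had 13.9, 5.39, 2.64, 8.57 and 4.95 CPM, the DMSO libraries 14.3, 6.91, 3.29, 8.92 and 5.09 CPM and the untreated libraries 13.3, 6.88, 3.34, 9.22 and 5.44 CPM. The 3 libraries of a batch lay together, and the 3 of batch 1 lay above all 12 others, as in no other of the 69 genes (2.89% of all genes). In fitted level, batch 1 was 1.07 above and batch 3 was 1.09 below the mean of the batches on the log2 scale (adjusted p over batches 8.73e-12, edgeR). For nlp-30 the UA libraries had 19.8, 16.4, 12.6, 17.4 and 13.7 CPM, the DMSO libraries 20.2, 20.7, 13.7, 19.1 and 12.96 CPM and the untreated libraries 23.7, 17.6, 12.9, 18.99 and 13.6 CPM (range 0.70, adjusted p = 7.57e-07, edgeR).

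The other 4 genes of the cluster were highest in batch 5. The UA libraries of nlp-27 had 12.96, 13.6, 14.4, 14.3 and 27.5 CPM in batches 1 to 5, the DMSO libraries 14.5, 16.9, 14.7, 13.4 and 24.5 CPM and the untreated libraries 14.1, 14.4, 16.6, 15.4 and 26.3 CPM. Batch 5 was 0.66 above the mean of the batches, and all 3 of its libraries exceeded the other 12 (range 0.90, adjusted p = 4.05e-08, edgeR). For nlp-28 the libraries of batch 5 had 3.26 to 4.87 CPM and the other 12 had 1.56 to 3.19 CPM. For nlp-31, whose peptide has antifungal activity, the libraries of batch 5 had 32.04 to 35.4 CPM and the other 12 had 25.04 to 29.9 CPM. For nlp-29 batch 5 had 17.8 CPM in UA, 13.3 CPM in DMSO and 15.2 CPM in untreated larvae, and the other batches 8.66 to 14.8 CPM, so its libraries overlapped. Batch 5 carried these calls: without it the range was 0.16 for nlp-27, 0.28 for nlp-28, 0.04 for nlp-31 and 0.42 for nlp-29, with adjusted p-values of 0.340, 0.748, 0.956 and 0.0483 (edgeR), whereas nlp-34 and nlp-30 stayed past the threshold without any 1 of the 5 batches.

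**Figure D4:**
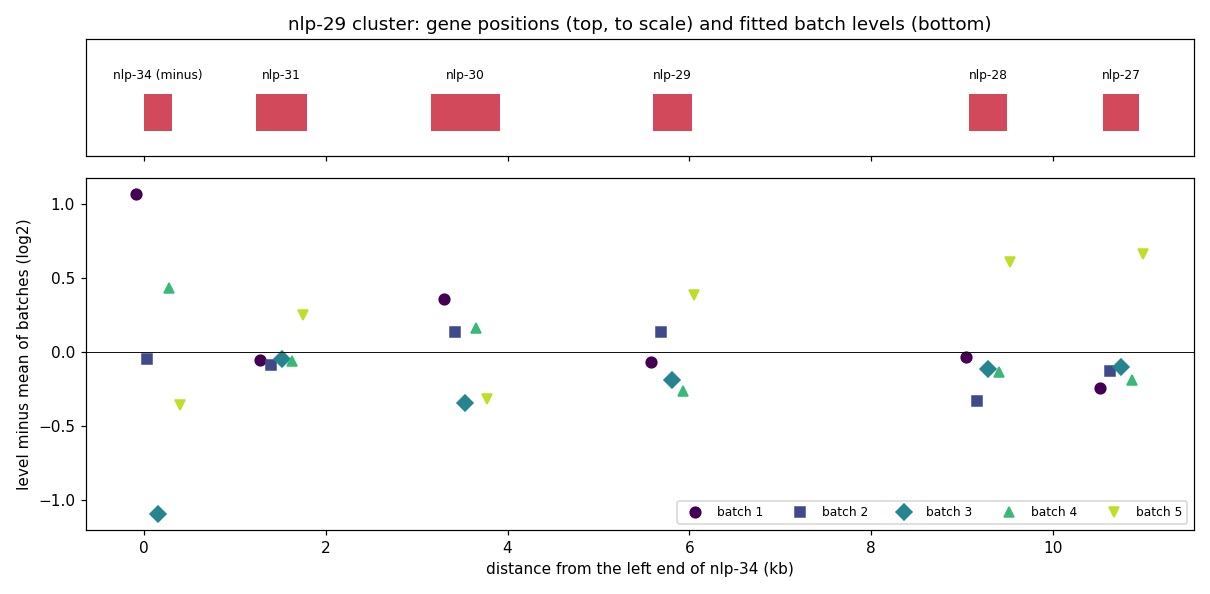
Top, the 6 genes of the nlp-29 cluster to scale along 10946 bp (distance from the left end of nlp-34, in kb). Bottom, fitted level of each gene in each of the 5 batches minus the mean of the batches (log2). Batch 5 lies below the mean for nlp-34 (-0.36) and nlp-30 (-0.32) and above it for the other 4 genes.

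The remaining YGGW-type genes lie elsewhere on chromosome V and also divided. The gene nlp-25 followed nlp-34: in batches 1 to 5 the UA libraries had 4.75, 2.23, 0.942, 4.12 and 1.65 CPM, the DMSO libraries 4.74, 3.31, 1.10, 3.30 and 1.51 CPM and the untreated libraries 5.95, 3.01, 1.30, 5.10 and 2.03 CPM. Batch 1 was 0.99 above and batch 3 was 1.22 below the mean of the batches (range 2.20, adjusted p = 6.11e-09, edgeR). For nlp-33 the batch means were 143 ± 7.76, 126 ± 20.2, 88.5 ± 4.92, 169.7 ± 4.25 and 93.5 ± 1.60 CPM (SD, n = 3 each), with batch 4 highest (range 0.94). The neighbour of nlp-25, nlp-26, begins 5041 bp after it and showed another course: it was lowest in batches 1 and 4 and highest in batch 5, with 9.50 CPM in UA, 11.1 CPM in DMSO and 11.2 CPM in untreated larvae there and 4.12 to 8.69 CPM elsewhere (range 0.995, adjusted p = 8.01e-06, edgeR). The gene nlp-24, whose peptides were linked to feeding in starved animals, had 126 ± 4.65 CPM in batch 5 and batch means of 88.7 to 99.9 CPM in the others (SD, n = 3). Across the 15 libraries, after removal of the group means, log2 CPM of nlp-34 correlated with that of nlp-25 (Pearson r = 0.969) and nlp-30 (0.884), and nlp-27 with nlp-24 (0.917) and nlp-31 (0.880), while nlp-30 and nlp-27 had r = -0.572. These values describe libraries that share batches, and no test was attached to them.

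**Figure D5:**
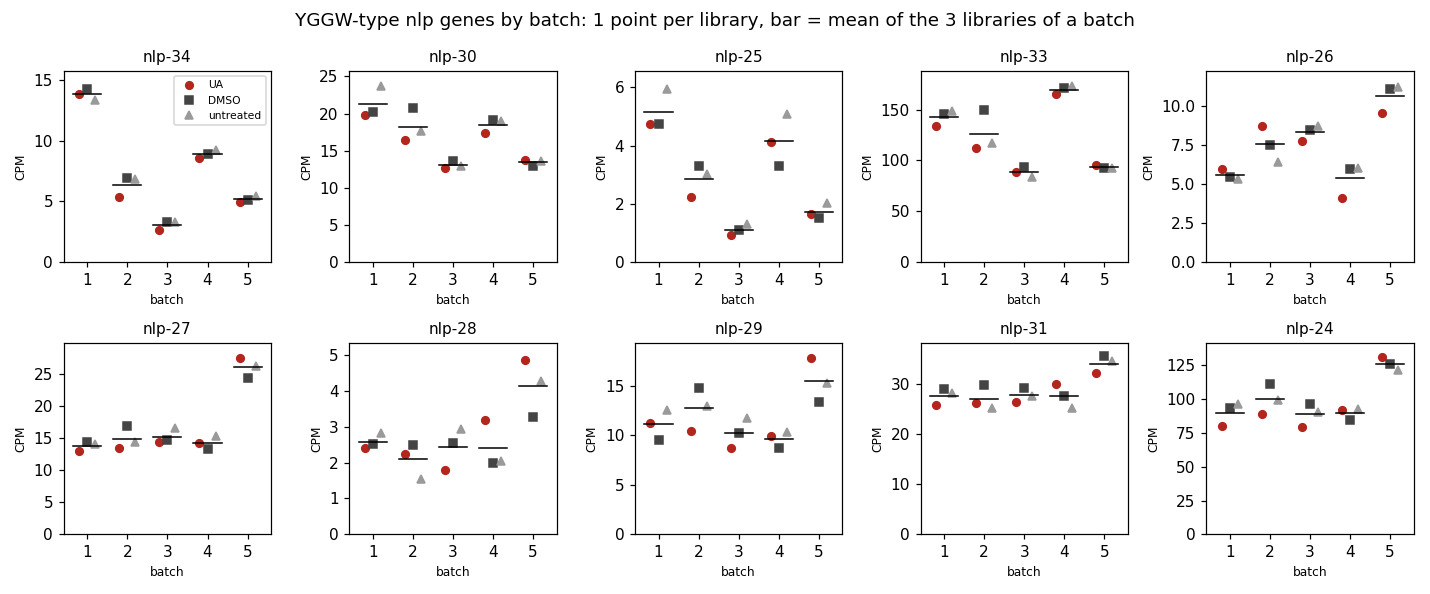
CPM of the 10 YGGW-type nlp genes by batch, 1 point per library (UA, DMSO, untreated) with the mean of the 3 libraries of a batch (bar). The upper genes nlp-34, nlp-30, nlp-25 and nlp-33 are low in batches 3 and 5, and nlp-26 and the lower genes are highest in batch 5.

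An order with batches 1 and 4 highest and batches 3 and 5 lowest was noticed in nlp-34, nlp-30, nlp-25 and nlp-33 and then counted over all genes. It was found in 7 of the 69 genes, against 17.3% of all genes: these 4, nlp-4, nlp-2 and flp-28. The opposite order was found in 11 of the 69, against 10.6% of all genes, with nlp-27, nlp-26, nlp-40 and nlp-36 among them. The difference of these shares from those of all genes was not tested. In nlp-4, whose class is not among the neuronal or YGGW-type lists, the UA libraries had 7.43, 6.75, 4.99, 6.27 and 3.38 CPM, the DMSO libraries 8.14, 5.38, 5.16, 7.68 and 4.06 CPM and the untreated libraries 7.50, 6.52, 5.38, 8.19 and 3.84 CPM in batches 1 to 5 (adjusted p = 4.32e-06, edgeR). Batch 5 lay 0.63 below the mean of the batches, and its 3 libraries were below all 12 others, again as in no other of the 69 genes (13.2% of all genes).

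Most flp genes kept within narrow limits over the batches. Their ranges ran from 0.14 to 0.67 and were largest for flp-27, flp-8, flp-25 and flp-33. The gene flp-27 had 6.12 to 6.62 CPM in the 3 libraries of batch 2 and 9.76 to 10.8 CPM in those of batch 5 (range 0.67, adjusted p = 4.16e-05, edgeR), and its range was 0.36 without batch 5 (adjusted p = 0.0120). For flp-8 the highest libraries were the DMSO (21.2 CPM) and the untreated (19.1 CPM) library of batch 5, and the UA library of that batch, with 15.2 CPM, lay among the others, which had 11.7 to 15.97 CPM (range 0.55, adjusted p = 8.43e-04, edgeR). Without batch 5 this range was 0.29 with an adjusted p of 0.0635. For flp-25 the range was 0.54 and did not pass the threshold (adjusted p = 0.0310, edgeR), or 0.28 with an adjusted p of 0.404 without batch 5, and for flp-33 it was 0.45 (adjusted p = 0.00352, edgeR), or 0.35 with an adjusted p of 0.0241 without batch 4. Of the 3 abundant flp genes, flp-14 (0.31) and flp-1 (0.27) were called and flp-9 (0.22) was not.

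The neuronal nlp genes had ranges from 0.15 to 0.52. The largest was that of nlp-3, whose peptides promote egg laying, with 11.9 to 13.04 CPM in batch 5 and 8.26 to 10.4 CPM in the other batches. It was followed by nlp-18, with 11.8 to 12.3 CPM in batch 4 and 13.8 to 18.7 CPM elsewhere (range 0.50, adjusted p = 1.62e-04, edgeR). The other called neuronal genes were nlp-21, nlp-13, nlp-8, nlp-47, nlp-1 and nlp-38. The 3 neuropeptide genes with the smallest range of fitted batch levels were nlp-37, annotated as pdf-2 and encoding a pigment-dispersing factor (6.19 to 8.23 CPM, range 0.12), flp-22 (10.9 to 14.5 CPM, range 0.14) and nlp-10 (8.85 to 11.7 CPM, range 0.15). Their adjusted p-values over batches were 0.862, 0.629 and 0.542 (edgeR). For the intestinal nlp-40 the range was 0.25 (adjusted p = 0.0138, edgeR).

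Batch 5 was the batch in which neuropeptide genes stood high. It was above the mean of the batches for 58 of the 69 genes, against 51.3% of all genes, and held the highest of the 5 levels for 50, among them 24 of 30 flp and 13 of 20 neuronal nlp genes, against 30% of all genes. The median level of flp genes there was 0.15 above the mean of the batches on the log2 scale, that of neuronal nlp genes 0.14 and that of all genes 0.01. All 3 libraries of batch 5 exceeded the other 12 for 18 of the 69 genes, against 6.97% of all genes: flp-1, flp-7, flp-13, flp-14, flp-15, flp-25, flp-26, flp-27, nlp-1, nlp-3, nlp-8, nlp-21, nlp-24, nlp-26, nlp-27, nlp-28, nlp-31 and nlp-35. Among them are flp-13, which the ALA neuron uses to induce sleep after stress, and nlp-1, a peptide gene of the AWC olfactory neurons. Without the UA library of batch 5, which had the fewest counts, the corresponding number was 23 (9.59% of all genes). Leaving out a library of batch 5 cannot lower this number, so it is no check on the 18. The lowest of the 5 levels was most often that of batch 4, for 26 of the 69 genes (21% of all genes).

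Summed over the 30 flp genes, batch 5 had 442 to 466 CPM, and the other 4 batches 370 to 424 CPM. The summed level of the 11 neuronal marker genes moved in the same direction: 585 to 612 CPM in batch 5 and 512 to 551 CPM in the other batches, with 10 of the 11 markers above their mean of the batches in batch 5. The sum of the intestinal markers was also highest there, with 2742 to 2803 CPM in batch 5 and 2225 to 2630 CPM in the other batches. As a set these markers did not rise: 4 of the 7 were above their mean of the batches in batch 5, with a median of 0.01. The most abundant were act-5 (mean 1426 CPM) and vha-6 (617 CPM), both above it, whereas ges-1 (-0.15) and mtl-2 (-0.44) were below it. The 28 sperm genes of the msp family that passed the filter summed to 446 to 535 CPM in batch 5 and 749 to 1518 CPM elsewhere, and the 10 oocyte and yolk genes to 415 CPM on average in batch 5 and 2863 CPM in batch 1. The 8 genes of the moulting cycle averaged 5005 CPM in batch 3, 4605 CPM in batch 5, 3059 CPM in batch 1 and 2923 CPM in batch 4. The part of neuronal, intestinal, germline and moulting transcripts in the batch differences of the neuropeptide genes was not tested.

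Genes that make, store and sense neuropeptides were also called by no treatment comparison, neither by edgeR nor by DESeq2. Of 10 genes for precursor processing, among them egl-3 (proprotein convertase), egl-21 (carboxypeptidase E), sbt-1 (the 7B2 chaperone) and the amidating enzyme genes pamn-1, pghm-1 and pgal-1, 0 were called between UA and DMSO, between UA and untreated or between DMSO and untreated, with 1, 2 and 1 at an unadjusted p under 0.05 (14%, 12.3% and 7.91% of all genes), and 7 were called over batches (53% of all genes). Between UA and DMSO, the log2 fold change was 0.02 for egl-3 and 0.03 for egl-21, with standard errors of 0.036 and 0.037. Of the 10 genes, 9 lay above their mean of the batches in batch 5, with a median of 0.16. Of 10 genes for dense core vesicles, such as unc-31 (CAPS) and ida-1, 0 were called by treatment, with 1, 1 and 3 at an unadjusted p under 0.05 in these comparisons (14%, 12.3% and 7.91% of all genes), and 6 over batches (53% of all genes), and all 10 were above their mean of the batches in batch 5. These lists hold 5 of the 11 neuronal markers (egl-3, unc-31, ida-1, unc-104 and unc-13), so they are not separate from the marker sum. Of 99 receptor genes, 65 passed the filter, and 0 were called by treatment, with 2, 8 and 2 at an unadjusted p under 0.05 (14%, 12.3% and 7.91% of all genes). The receptor sum was higher in UA than in DMSO in 5 of 5 batches. Between UA and DMSO, 42 of the 65 receptor genes had a log2 fold change above 0, against 49.4% of all genes. No test was attached to this sum or share. Over batches 6 were called, against 53% of all genes: nmur-4, seb-2, frpr-19, tkr-3, gnrr-7 and frpr-2. The fewer calls do not show steadier levels, since receptor levels were low, with means from 0.83 CPM (gnrr-7) to 21.6 CPM (pdfr-1). Their median range was 0.39, beside 0.36 for all genes, and 20 of the 65 had a range of at least 0.5 (36.1% of all genes).

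Genes of the epidermal defence were measured beside the nlp-29 cluster. Of 20 genes of the pathways that control nlp-29 and its relatives, such as tir-1, pmk-1, sta-2 and snf-12, 0 were called by treatment by edgeR or DESeq2, with 3, 5 and 6 at an unadjusted p under 0.05 in the comparisons of UA with DMSO, UA with untreated and DMSO with untreated larvae (14%, 12.3% and 7.91% of all genes), and 13 were called over batches (53% of all genes). The transcription factor gene sta-2 had a range of 0.82, with batch 5 at 0.51 above the mean of the batches, and the MAP kinase gene pmk-1 a range of 0.25 (adjusted p = 0.0210, edgeR). Among the 20, gpdh-1 had the largest range (0.98), and it lay below its mean of the batches in batch 5 (-0.37). In that batch 18 of the 20 were above their mean of the batches, against 51.3% of all genes. Of the 11 caenacin genes, which encode further epidermal antimicrobial peptides, 4 passed the filter, 0 were called by treatment by either tool or had an unadjusted p under 0.05, and 3 were called over batches: cnc-4, cnc-3 and cnc-8. The largest range was that of cnc-4 (1.26), highest in batch 1 and lowest in batch 3, as for nlp-34. The other caenacin genes did not share this course. Against its mean of the batches, cnc-3 was at -0.31 in batch 1 and 0.30 in batch 3. The highest level was that of batch 5 for cnc-8 (0.41) and that of batch 2 for cnc-10 (0.23). Of 8 epidermal marker genes, 6 were called over batches (53% of all genes). The 8 summed to 534 to 588 CPM in batch 5, 520 to 555 CPM in batch 3 and 352 to 440 CPM in batches 1, 2 and 4. The most abundant was dpy-7, with a mean of 241 CPM. Above their mean of the batches were 6 of the 8 in batch 5, but not lin-26 (-0.16) and elt-1 (-0.05), and 5 of the 8 in batch 3. The lists are not separate: sta-2, snf-12 and elt-3 are also among the 20 pathway genes, and nhr-23 is among the moulting genes. The part of all these genes in the course of the cluster was not tested.

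Outside the families, the gene most like nlp-29 over the 15 libraries, by the correlation of log2 CPM after removal of the group means, was F49B2.6 (Pearson r = 0.949). It was followed by the cuticle collagen genes col-10 (0.927) and col-117 (0.916), by F08G2.8 (0.908) and by F53F8.4 (0.906). All 5 were chosen as the highest of the tested genes outside the flp and nlp families, over libraries that share batches.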

How the data were processed

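The labels name N2 whole larvae, poly-A selection and the TruSeq stranded kit. Per the study's methods, the authors mapped single-end reads to WBcel235 with STAR (2.5.2b in the submitters' processing notes), marked duplicates with Picard and counted reads on exons with featureCounts 1.5.2 within RNAsik. They deposited raw counts for 20541 genes, not normalized. The strand setting of the counting is not given in the sources used here, so reads of overlapping antisense genes cannot be told apart, and exons of 13 of the 69 genes overlapped another gene, by at most 68 bp. Columns were matched to samples by the labels, and 0 columns were left unused.

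Genes needed at least 10 counts in a library and 1 CPM in 3 libraries. Counts were fitted in R 4.3.3 with edgeR 4.0.16: TMM factors, the trended dispersions that its quasi-likelihood fit takes by default, the method of older edgeR versions, and group and batch as terms; the design had named tagwise dispersions, and a fit that uses them was added as an alternative after seeing the data. CPM uses TMM library sizes, and log2 CPM a prior count of 2. TPM was computed from counts and the summed exonic length in the WBcel235 annotation, in which all 69 genes were found. The replicate number is the batch in the labels, and it pairs the libraries: deviations from the group mean correlated across all tested genes between the UA and the DMSO library of the same batch, by 0.458 to 0.823. Across the 69 neuropeptide genes alone the correlation ran from 0.163 in batch 2 to 0.726 in batch 3. Range, standard error and 95% interval come from the same fit. The script was tested on simulated data.

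Named are the nlp-29 cluster, the 5 highest and 5 lowest log2 fold changes between UA and DMSO, the 3 highest levels and 4 largest batch ranges of flp and of nlp genes and the 3 smallest ranges; other names were chosen after their values were seen. The genes, lists and tests were chosen with earlier results of these data known. Alternatives were DESeq2 1.42.0, RLE factors, other filters, the edgeR 4 method, only the groups compared, no batch term, a threshold of 0.05, and the omission of single batches or UA libraries. Python 3.11.15 with matplotlib 3.10.9 was used for the figures. Sequences were not used here.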

Additional observations from a re-analysis of the deposited data

Results flagged for a closer look

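Among 90 groups of 5 libraries (30 named genes in 3 treatment groups), 8 libraries stood apart from the other 4 of their group by a gap that chance gives in about 1 of 20 groups of independent values. That rate is no expectation here, since many of the genes were named for large batch ranges or for high or low estimates between UA and DMSO, and the groups share batches. In 7 of the 8 the library was of batch 5. The YGGW-type genes held 6 of them. The level of nlp-27 was 27.48 CPM in the UA library of batch 5 and 12.96 to 14.4 CPM in the other UA libraries, and in batch 5 the untreated library held 26.25 CPM, where the other untreated ones held 14.1 to 16.6 CPM. For nlp-24 it was 131.0 CPM in the UA library of batch 5 (others 79.2 to 92.3 CPM) and 121.7 CPM in untreated larvae of batch 5 (others 90.6 to 99.5 CPM). The UA library of batch 5 had 17.75 CPM of nlp-29 (others 8.66 to 11.2 CPM), and the DMSO library of batch 5 had 35.39 CPM of nlp-31 (others 27.5 to 29.8 CPM).

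Among flp genes, flp-26 was at 7.596 CPM in the DMSO library of batch 5 (others 6.07 to 6.44 CPM), and flp-2 at 7.68 CPM in the DMSO library of batch 2 (others 4.96 to 5.53 CPM).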

How the results depend on the processing

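No alternative called a neuropeptide gene between UA and DMSO, UA and untreated or DMSO and untreated, the fit with tagwise dispersions, added after seeing the data, included, which called 184, 329 and 71 of all genes in these comparisons. For UA against DMSO the count over all genes was 38 and became 61 with DESeq2, 77 at a false discovery rate of 0.05, 71 without a filter, 10 without the replicate block, and 17 to 162 when a batch or a UA library was left out (162 without the UA library of batch 4). For UA against untreated it was 147 and became 12 without the replicate block, 79 with only the groups compared and 71 to 396 in the leave-outs. For DMSO against untreated it was 17 and became 26 with DESeq2, 30 at a false discovery rate of 0.05, 35 without a filter, 0 without the replicate block, 73 with only the groups compared and 9 to 31 in the leave-outs. Over batches, 15 to 32 neuropeptide genes were called with 1 batch left out (15 without batch 5, against 30 with all). With no filter, 7 neuropeptide genes instead of 3 had a batch range of at least 1, and with the filter 17 reached 0.5. The difference in median range between cluster and neuronal nlp genes lay between 0.154 and 0.541 with 1 batch left out, and 16 genes instead of 47 exceeded the median level when length was not used. The log2 fold change of nlp-5 between UA and DMSO, 0.10, lay between -0.10 (without batch 1) and 0.27 in the leave-outs, with -0.02 without batch 4 and -0.05 without the UA library of batch 1. The causes were not tested. Depth limits the genes with the fewest counts most, such as nlp-5, nlp-19 and nlp-28.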
